A study of Mus musculus with 15 samples.

Results

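Actomyosin contractility genes were followed here as a list of 32 human genes, chosen by name for their roles in non-muscle contraction: 2 cytoplasmic actins, 6 chains of myosin II, 7 regulators of myosin, 7 genes of actin turnover and 10 filament-binding genes. All 32 were found among the 25382 genes of the count table, and all 32 were among the 15190 genes with enough counts to be tested. All libraries were of primary tumours that MDA-MB-231 cells, labelled GFP+ Luc+, had formed in mice of the strain labelled Nod/Skid. MDA-MB-231 is a single established line of human triple-negative breast cancer. The tumours differed in the cells that started them: weakly adherent cells, sheared at 10 dyn/cm2 (6 libraries), strongly adherent cells, sheared at 50 dyn/cm2 (4 libraries), and unsorted cells with no shear (5 libraries). What the libraries compare is therefore the tumour that each kind of cell formed, after removal and dissociation, and not the freshly sorted cells. The mice's ages, and whether each library is a separate animal, are not given in the labels, and p-values therefore refer to the spread among the libraries, part of which may be technical.

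Each title also carries a number after the word Group: 4, 5, 6 and 9 occur in all 3 groups, 7-8 in the weakly adherent and unsorted groups, and 10 in the weakly adherent group. What the number stands for is not given, and libraries are named here by group and number. Total counts ran from 30372619 to 45434799 per library, and single members had from 268 counts (TAGLN) to 387182, so counting error was small beside the differences between libraries. Levels are given as CPM, the count scaled to library size by the TMM method, which corrects for depth but not for gene length, so they are compared between libraries and not between genes. The labels name mouse as the organism, but genes are listed by human symbols on a human build, hg19, so some counts may be mouse reads placed on the matching human gene. The line's own pattern was present in most of its listed markers. CD44 was at 478 to 776 CPM, VIM at 1143 to 7399 CPM and KRT18 at 279 to 970 CPM. ESR1 and PGR, receptors this line lacks, stayed at or below 0.234 and 0.950 CPM. Of the other markers listed as low in the line, GATA3 was at 2.86 to 5.75 CPM, but ERBB2 was at 76.6 to 145 CPM. The 3 libraries titled number 6 stood apart from the other 12 (855 tested genes lay above and 1577 below all the others), and results are given with and without them where they rest on them.

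Non-muscle cells pull with filaments of myosin II that slide along actin bundles. The ROCK kinases, once switched on, raise the phosphorylation of the myosin regulatory light chain by acting on the chain and on its phosphatase, and also activate the LIM kinases that silence cofilin, an actin-severing protein. Formins such as DIAPH1 build the filaments, while tropomyosins, calponins, caldesmon and transgelins coat or bundle them. In breast cancer cells this machinery drives traction on the matrix, migration and cytokinesis, and much of it is controlled by phosphorylation, which RNA counts do not measure. Several of the genes also have muscle forms: TPM1, TPM2, TPM3 and CFL2 serve skeletal muscle as well, and MYL6, MYL9, MYLK, CNN2, CALD1 and TAGLN serve smooth muscle, 10 of the 32 in all.

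The list as a whole took a similar part of every tumour's counts. Its 32 genes held 2.51 ± 0.208% of the counts in weakly adherent tumours (SD, n = 6), 2.59 ± 0.263% in strongly adherent tumours (SD, n = 4) and 2.66 ± 0.213% in unsorted tumours (SD, n = 5). These means differed by less than 1 SD of any of the groups. The libraries titled number 6 held 2.22 to 2.40% and the other 12 held 2.33 to 2.99%.

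**Figure D1:**
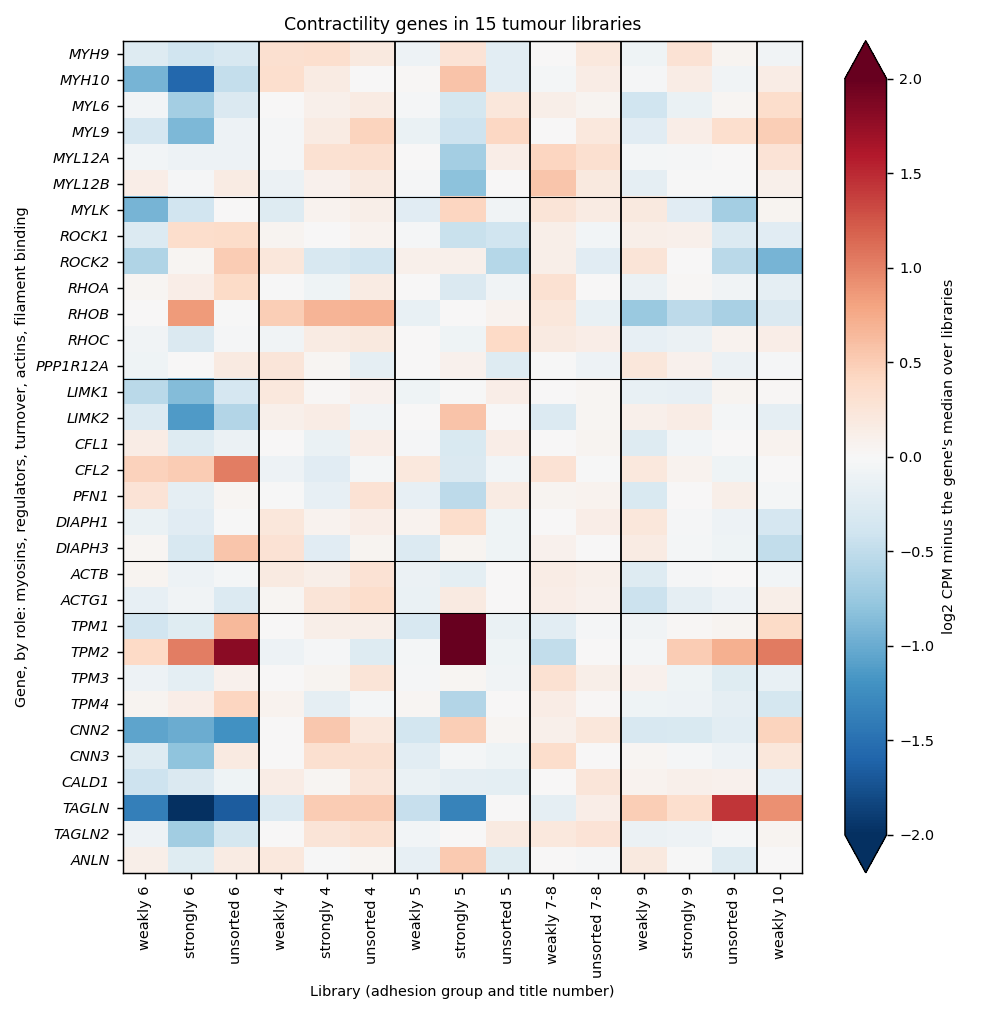
Log2 CPM of each of the 32 genes minus its own median over the 15 libraries, drawn as colour. Genes are in rows ordered by role, and libraries are in columns grouped by title number, with number 6 first. TPM1 and TPM2 stand out in strongly adherent 5 (1392 and 513 CPM), and TAGLN and CNN2 are low in the 3 libraries titled number 6.

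None of the 32 genes passed the test in any contrast of adhesion groups. With edgeR's quasi-likelihood test over all 15 libraries and an adjusted p threshold of 0.05, 0 of 32 were called between weakly and strongly adherent, between weakly adherent and unsorted, and between strongly adherent and unsorted tumours. The background was the same, with 0 of 15190 genes (0%) called in each contrast. At an unadjusted p under 0.05 there were 2, 0 and 2 of the 32, against 366 (2.41%), 81 (0.533%) and 572 (3.77%) of all genes tested. DESeq2, limma voom and limma-trend called none of the 32 in these contrasts either.

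The fitted log2 differences of the list were small on balance. Between weakly and strongly adherent tumours, 18 of the 32 were positive and 14 negative, with a median of 0.05 against -0.02 over all genes tested, and without strongly adherent 6 the split was 14 positive and 18 negative with a median of -0.01. For weakly adherent against unsorted tumours, 7 were positive and 25 negative, with a median of -0.05 against 0.00 over all genes. Without the libraries titled number 6 that split was 15 positive and 17 negative, with a median of -0.02, and without unsorted 4 it was 16 and 16. For strongly adherent against unsorted tumours, 14 were positive and 18 negative, with a median of -0.13 against 0.02. Without the libraries titled number 6 that median was -0.03, with 15 positive and 17 negative, and without strongly adherent 5 there were 5 positive and 27 negative. These 3 contrasts share libraries, so they are not independent of each other.

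**Figure D2:**
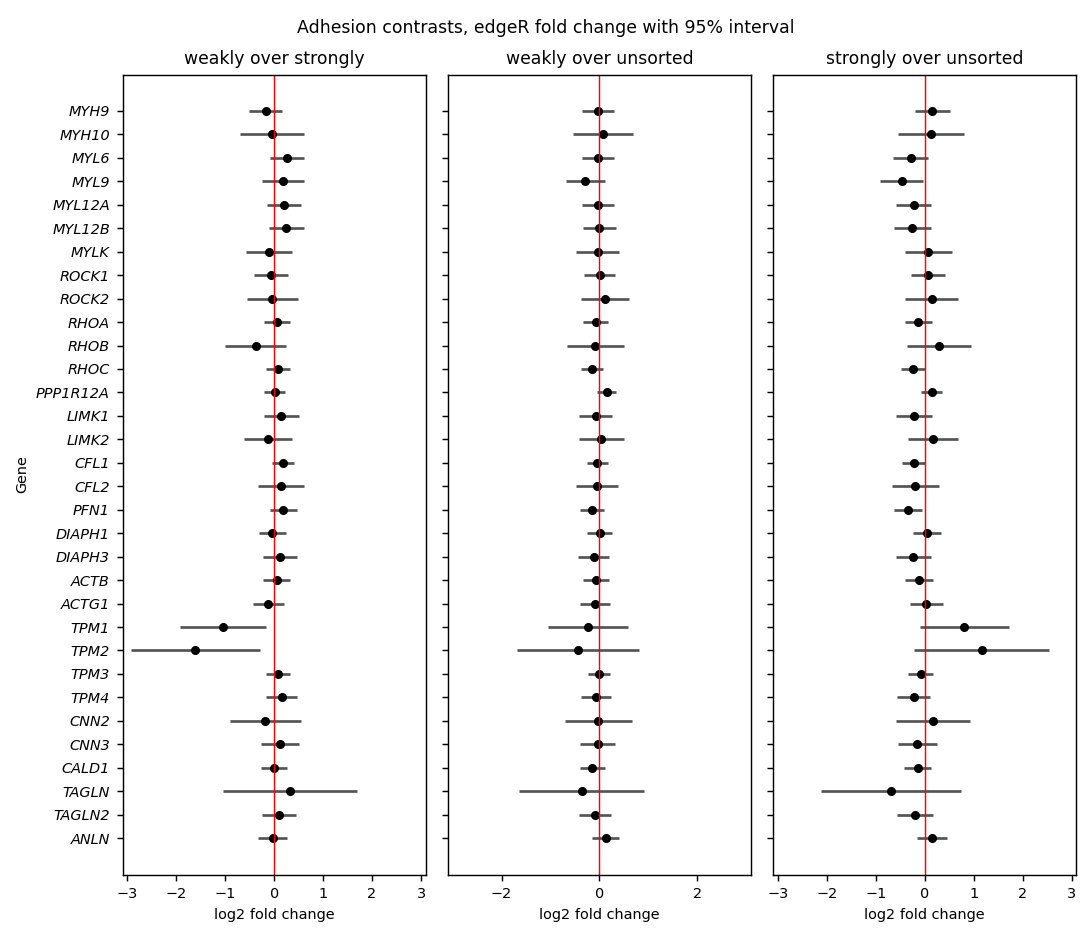
Fitted log2 fold change of each of the 32 genes with its 95% confidence interval in the 3 contrasts (first-named group over second), from edgeR. Most intervals cross 0, the widest belong to TPM2, TPM1 and TAGLN, and no gene passed the adjusted threshold.

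The members of smallest p between weakly and strongly adherent tumours were 2 tropomyosin genes and cofilin. Tropomyosins are coiled-coil proteins that lie along the actin filament, and TPM2 is a main form of skeletal and smooth muscle. TPM2 had 48.7, 51.4, 69.5, 37.3, 51.3 and 108 CPM in weakly adherent tumours 4, 5, 6, 7-8, 9 and 10, against 51.8, 513, 107 and 74.4 CPM in strongly adherent tumours 4, 5, 6 and 9, and 44.1, 49.5, 184, 52.5 and 85.9 CPM in unsorted tumours 4, 5, 6, 7-8 and 9. A single library, strongly adherent 5, was far above all the others, while the remaining values of the groups overlapped. Its log2 difference, weakly over strongly adherent, was -1.61 ± 0.61 (SE, 95% interval -2.93 to -0.30), with an edgeR adjusted p of 0.99998, and it was -0.35 without strongly adherent 5.

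TPM1, which gives both muscle and non-muscle tropomyosins, repeated that pattern. It had 285, 229, 219, 247, 271 and 371 CPM in weakly adherent tumours 4, 5, 6, 7-8, 9 and 10, against 309, 1392, 242 and 291 CPM in strongly adherent tumours 4, 5, 6 and 9, and 308, 259, 446, 280 and 296 CPM in unsorted tumours 4, 5, 6, 7-8 and 9. Strongly adherent 5 was 3.12 times the next highest library, which was unsorted 6. The log2 difference, weakly over strongly adherent, was -1.05 ± 0.41 (SE) with an edgeR adjusted p of 0.99998, and -0.05 without strongly adherent 5. In the contrast of strongly adherent with unsorted tumours, leaving out that library turned the fitted sign of both genes: TPM1 was at -0.18 without it and 0.81 with all libraries, and TPM2 at -0.10 without it and 1.16 with all.

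Skeletal muscle markers were also highest in strongly adherent 5, and next highest in unsorted 6. Of 18 such markers, 17 had counts in strongly adherent 5, and 9 to 17 did across libraries. Their summed level was 69.3 to 253 CPM in weakly adherent tumours, 87.5 to 2604 CPM in strongly adherent tumours and 87.7 to 1099 CPM in unsorted tumours. The highest sums, in descending order, were those of strongly adherent 5 (2604 CPM), unsorted 6 (1099 CPM), strongly adherent 6 (461 CPM) and weakly adherent 6 (253 CPM), against 69.3 to 106 CPM in the other 11 libraries. Most of that lower range was TNNT1, a slow troponin T, which did not go with the other markers: it had 58.1 CPM in strongly adherent 5 and 47.1 CPM in unsorted 6, against a median of 78.1 CPM over the 15 libraries. Without TNNT1 the sums were 2546 CPM in strongly adherent 5, 1052 CPM in unsorted 6, 404 CPM in strongly adherent 6 and 169 CPM in weakly adherent 6, against 5.84 to 13.7 CPM in the other 11. ACTA1, the skeletal muscle actin, had 864 CPM in strongly adherent 5, 350 CPM in unsorted 6, 133 CPM in strongly adherent 6 and 53.4 CPM in weakly adherent 6, against 0.261 to 3.24 CPM in the other 11. Where the sums were highest, both tropomyosins rose with them, in the order weakly adherent 6, strongly adherent 6, unsorted 6 and strongly adherent 5. TPM1 had 219, 242, 446 and 1392 CPM and TPM2 had 69.5, 107, 184 and 513 CPM in that order. Across all 15 libraries the levels did not follow the sums throughout. The TPM1 of weakly adherent 6 was the lowest of the 15, and weakly adherent 10, one of the 11 libraries with low sums, had 108 CPM of TPM2. The part of muscle RNA in the tropomyosin values was not tested, and in bulk RNA fewer cells of a type and less RNA per cell cannot be told apart.

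**Figure D3:**
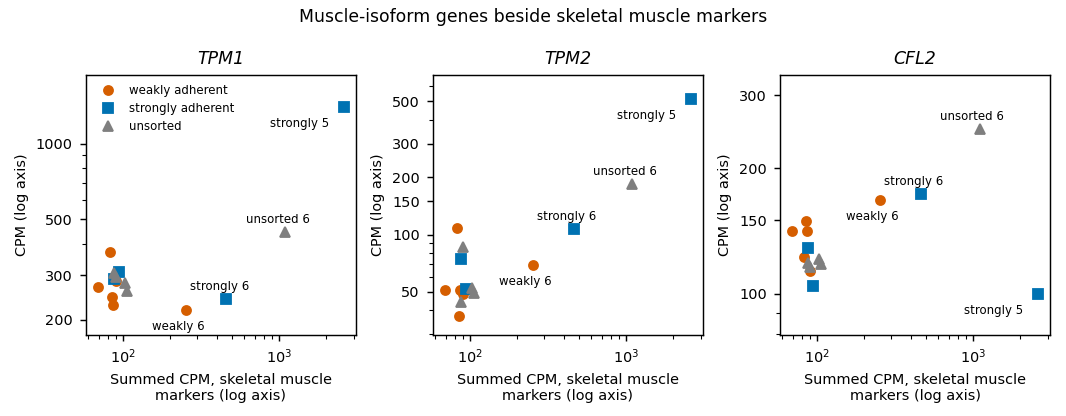
Levels of TPM1, TPM2 and CFL2 (log CPM axis) against the summed CPM of the skeletal muscle markers (log axis), 1 point per library. Strongly adherent 5 is at the upper right for both tropomyosins (1392 and 513 CPM at a marker sum of 2604 CPM), while its CFL2, 99.7 CPM, is the lowest of the 15.

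CFL2, the muscle cofilin, was not high in strongly adherent 5. It had 99.7 CPM in strongly adherent 5, the lowest of the 15 libraries, where the sum was highest. In the libraries titled number 6 it had 168 CPM (weakly adherent), 173 CPM (strongly adherent) and 249 CPM (unsorted), all above the other 12, which ran from 99.7 to 149 CPM. TPM3, the tropomyosin gene of slow muscle and of non-muscle cells, ranged only from 454 to 661 CPM.

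CFL1, the non-muscle cofilin, was the other member named between weakly and strongly adherent tumours. It had 1131, 1362 and 1509 CPM as lowest, median and highest in weakly adherent tumours, against 1231, 1101, 1135 and 1305 CPM in strongly adherent tumours 4, 5, 6 and 9. The groups overlapped, with a log2 difference of 0.18 ± 0.11 (SE) and an edgeR adjusted p of 0.99998.

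Between weakly adherent and unsorted tumours the members of smallest p were a phosphatase subunit, a light chain and a small GTPase. PPP1R12A, which brings the phosphatase to myosin, averaged 99.3 ± 9.63 CPM in weakly adherent tumours and 89.5 ± 10.9 CPM in unsorted tumours (SD, n = 6 and 5), a log2 difference of 0.15 ± 0.09 (SE). MYL9, a regulatory light chain of myosin, had 119, 111, 96.4, 121, 104 and 171 CPM in weakly adherent tumours 4, 5, 6, 7-8, 9 and 10, against 166, 161, 114, 141 and 153 CPM in unsorted tumours 4, 5, 6, 7-8 and 9, a log2 difference of -0.29 ± 0.19 (SE). RHOC, a small GTPase linked to invasion, averaged 370 ± 34.1 CPM in weakly adherent tumours and 413 ± 46.6 CPM in unsorted tumours (SD, n = 6 and 5), a log2 difference of -0.16 ± 0.11 (SE). In each of these genes the groups overlapped, and the edgeR adjusted p was 0.99975.

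Between strongly adherent and unsorted tumours the members of smallest p were profilin, the same light chain and cofilin, none of them past the threshold. PFN1, profilin, which loads actin monomers for filament growth, had 1214, 946, 1206 and 1359 CPM in strongly adherent tumours 4, 5, 6 and 9, against 1653, 1531, 1389, 1420 and 1479 CPM in unsorted tumours 4, 5, 6, 7-8 and 9. Every strongly adherent library lay below every unsorted one. The log2 difference was -0.34 ± 0.13 (SE, 95% interval -0.62 to -0.06) with an edgeR adjusted p of 0.975. MYL9 had 136, 91.0, 64.9 and 133 CPM in strongly adherent tumours 4, 5, 6 and 9, against 114 to 166 CPM in unsorted tumours, where only number 6 was under 136 CPM. Its log2 difference was -0.47 ± 0.21 (SE, 95% interval -0.91 to -0.03) with an edgeR adjusted p of 0.975. For CFL1, with 1231, 1101, 1135 and 1305 CPM in strongly adherent tumours and 1256 to 1487 CPM in unsorted tumours, the groups overlapped at number 6, and the log2 difference was -0.23 ± 0.11 (SE) with an edgeR adjusted p of 0.975.

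Libraries of the same title number were also set side by side. With the number as a block in the model, edgeR again called 0 of the 32 genes in each contrast (0% of all genes), and at an unadjusted p under 0.05 there were 1, 1 and 4 of the 32 against 6.78%, 1.13% and 8.26% of all genes, in the order of contrasts above. DESeq2 with that block called 23 genes for strongly adherent against unsorted tumours, none of them among the 32, and 0 without it. For strongly adherent against unsorted tumours, 10 of the 32 genes (31.2%) were lower in all 4 numbers, against 9.03% of all genes tested, and 0 were higher in all 4, against 10.7% of all genes. The 10 were the light chains MYL6, MYL9 and MYL12A, the GTPase RHOC, the kinase LIMK1, CFL1, PFN1, ACTB, TAGLN and TAGLN2. Within numbers 4, 5, 6 and 9 the log2 difference of MYL9 was -0.28, -0.83, -0.81 and -0.20, and that of PFN1 was -0.45, -0.69, -0.20 and -0.12. Numbers 5 and 6 thus carried the larger differences of MYL9. TAGLN, the transgelin of smooth muscle, had -0.01, -1.33, -0.85 and -1.09 in the same order.

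For weakly against strongly adherent tumours, 5 of the 32 (15.6%) were lower in all 4 numbers, against 6.16% of all genes, and 0 were higher, against 5.17%. They were RHOB, ACTG1, TPM1, TPM2 and CNN2. ACTG1, the cytoplasmic gamma actin, had differences of -0.22, -0.31, -0.09 and -0.24 on the log2 scale in numbers 4, 5, 6 and 9. CNN2 had -0.53, -0.86, -0.07 and -0.01, and RHOB had -0.20, -0.15, -0.85 and -0.21. For weakly adherent against unsorted tumours, 2 of the 32 (6.25%) were lower in all 5 numbers, against 1.52% of all genes, and 0 were higher, against 1.38%. These were MYL9, between -0.57 and -0.22, and TPM1, between -1.03 and -0.11. All 3 sets draw on the same libraries and none of these genes passed the test, so the counts are a description.

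**Figure D4:**
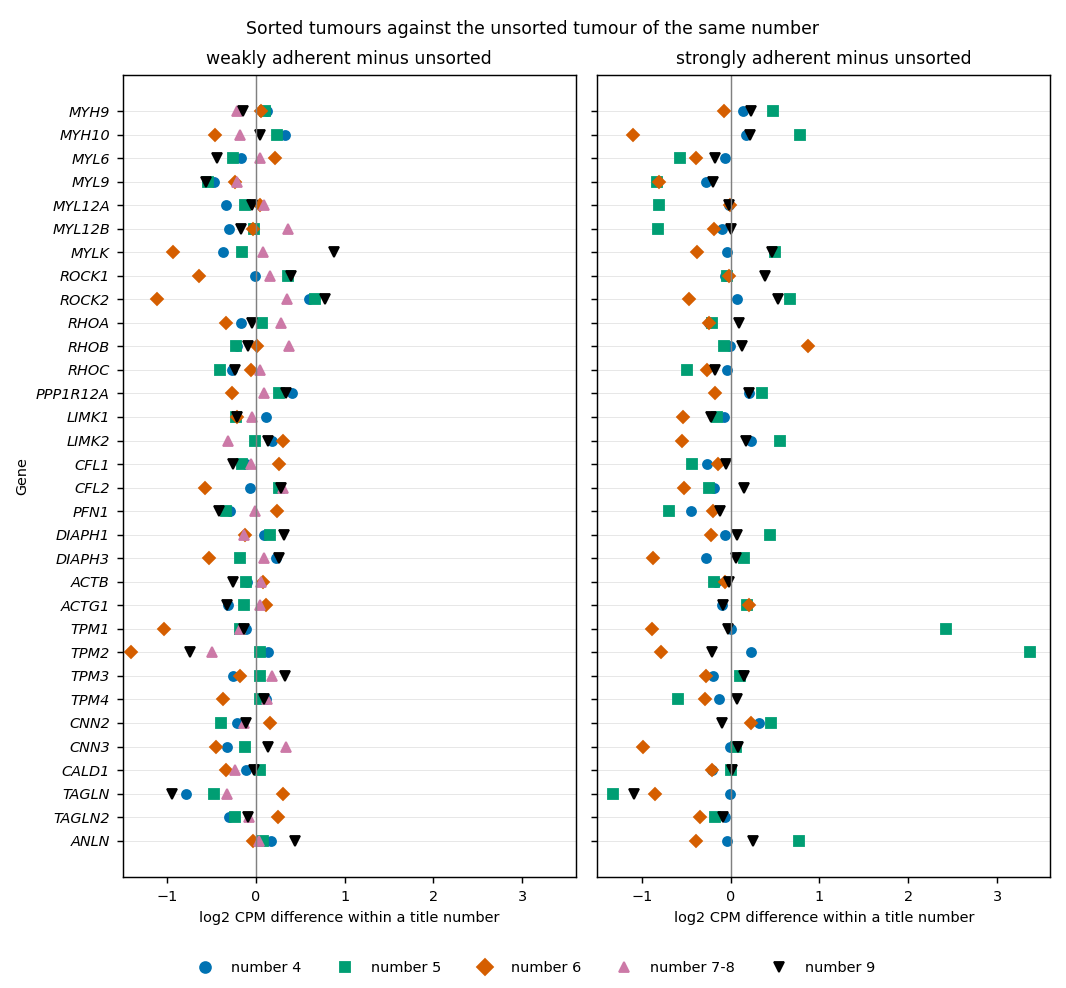
Log2 CPM difference between the sorted and the unsorted tumour of the same title number for each of the 32 genes, weakly adherent minus unsorted on the left and strongly adherent minus unsorted on the right, 1 symbol per title number. MYL9 is left of 0 at every number in both panels, and TPM1 and TPM2 reach 2.42 and 3.37 at number 5 in the strongly adherent panel.

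More genes differed between title numbers than between adhesion groups. With the group in the model, edgeR's quasi-likelihood F test over the 6 numbers called 5 of the 32 genes (15.6%) at an adjusted p under 0.05, against 1200 of 15190 genes (7.90%). They were CNN2, TAGLN, RHOB, LIMK1 and CFL2. For a median member, 54.2% of the sum of squares of log2 CPM lay between numbers and 10.6% between groups, and over all genes tested the medians were 50.5% and 7.36%, although chance alone puts more between 6 numbers than between 3 groups. Without the 3 libraries of number 6, which leaves a smaller fit, 0 of the 32 and 3 genes of the table were called by the same test, and when strongly adherent 5 was also left out, 1 of the 32 (RHOB) and 54 genes were.

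CNN2 and TAGLN, both actin-binding proteins of the calponin family, were low at number 6. CNN2 had 135, 141 and 121 CPM in the weakly adherent, strongly adherent and unsorted tumours of number 6, against 217 to 405 CPM in the other 12 libraries, where the highest were strongly adherent 4 and strongly adherent 5 (405 and 393 CPM). Its edgeR adjusted p was 0.00306. TAGLN had 16.1, 7.17 and 13.0 CPM in the weakly adherent, strongly adherent and unsorted tumours of number 6, against 16.4 to 112 CPM in the other 12, with strongly adherent 5 (16.4 CPM) next to number 6 and unsorted 9 highest. Its edgeR adjusted p was 0.00669. Both genes kept an adjusted p under 0.05 whichever of the 15 libraries was left out, and had 0.233 (CNN2) and 0.197 (TAGLN) at the most over all alternatives.

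RHOB, a small GTPase of endosomes whose gene is induced early by growth factors and stress, followed the numbers in another way. Number 4 had 241, 276 and 279 CPM in its weakly adherent, strongly adherent and unsorted tumours, and number 9 had 103, 120 and 110 CPM. Between them lay number 5 with 155, 172 and 181 CPM, number 7-8 with 201 CPM (weakly adherent) and 156 CPM (unsorted), and number 10 with 141 CPM (weakly adherent). Libraries that shared one of the numbers 4, 5 and 9 were thus close to each other. Number 6 was mixed, with 172, 311 and 171 CPM in its weakly adherent, strongly adherent and unsorted tumours. The edgeR adjusted p was 0.0136, and it stayed under 0.05 in each of the 15 fits that left out a library.

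**Figure D5:**
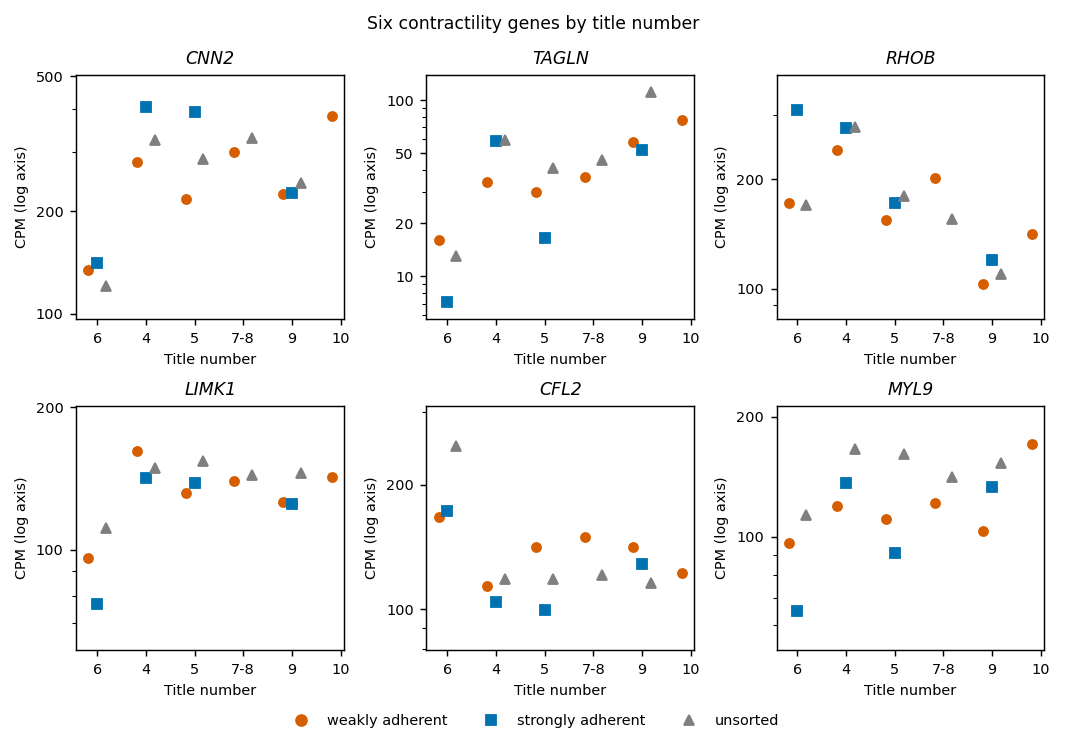
CPM (log axis) of CNN2, TAGLN, RHOB, LIMK1, CFL2 and MYL9 by title number, 1 symbol per library and adhesion group. Number 6 is low for CNN2, TAGLN and LIMK1 and high for CFL2. RHOB is highest in strongly adherent 6, then in number 4, and lowest in number 9.

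LIMK1 and CFL2 passed by less. LIMK1, which phosphorylates cofilin, had 96.0, 76.7 and 111 CPM in the weakly adherent, strongly adherent and unsorted tumours of number 6, against 125 to 161 CPM in the other 12, with an edgeR adjusted p of 0.0345. CFL2, given above, had an edgeR adjusted p of 0.0435. Of the 15 fits that left out a library, 5 kept LIMK1 and 4 kept CFL2 under the threshold, so either call depends on which libraries enter. Without strongly adherent 5 the test called 7 of the 32, with TPM2 and MYH10 beside these 5, and 1621 genes of the table, against 1200 with all libraries.

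The next 3 members did not pass. MYL9, with edgeR adjusted p 0.0791, had 96.4, 64.9 and 114 CPM in the weakly adherent, strongly adherent and unsorted tumours of number 6, against 91.0 to 171 CPM in the other 12. MYH10, the heavy chain of non-muscle myosin IIB, had 31.3, 20.2 and 43.2 CPM in the same libraries of number 6, against 51.7 to 89.1 CPM in the other 12 (edgeR adjusted p 0.101). For CALD1, caldesmon, which holds back myosin on tropomyosin-coated filaments, the values of number 6 were 117, 128 and 147 CPM, against 137 to 186 CPM in the other 12 (edgeR adjusted p 0.118). At the other end, CFL1 and ANLN had the largest p of the members at 100 CPM or more, with edgeR adjusted p 0.990 and 0.995. ANLN, the anillin scaffold of the cytokinetic ring, averaged 249 ± 23.7 CPM in weakly adherent, 254 ± 60.8 CPM in strongly adherent and 228 ± 28.5 CPM in unsorted tumours (SD, n = 6, 4 and 5), with its highest value, 342 CPM, in strongly adherent 5.

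Set against the other 12 libraries without a test, number 6 lay wholly apart for 7 of the 32 genes. Only CFL2 was above all 12 (1 of 32, against 5.63% of all genes), at 1.60 times their mean. Below all 12 were 6 of the 32 (against 10.4% of all genes): MYH9 and MYH10, the heavy chains, at 0.739 and 0.487 times the mean of the others, the kinases LIMK1 and LIMK2 at 0.668 and 0.622 times, CNN2 at 0.438 times and TAGLN at 0.233 times. LIMK2 lay below by a hair, 17.017 CPM in weakly adherent 6 against 17.021 CPM in weakly adherent 7-8. None of the 7 regulators was among them, and their values overlapped. RHOA, ROCK1, ROCK2, RHOB and PPP1R12A had ratios of number 6 to the others of 1.16, 1.19, 1.14, 1.22 and 1.02. MYLK and RHOC had lower ratios, 0.758 and 0.871.

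Of the myosin chains, MYH10 varied most over the 15 libraries, with a coefficient of variation of 29.0%, followed by MYL9 with 24.0%, while those of MYH9, MYL6, MYL12A and MYL12B were 16.8% to 18.2%. MYH9, the heavy chain of myosin IIA, averaged 1413 ± 203 CPM in weakly adherent, 1595 ± 338 CPM in strongly adherent and 1438 ± 231 CPM in unsorted tumours (SD, n = 6, 4 and 5), and its lowest value was 1091 CPM in strongly adherent 6. MYL12A and MYL12B, neighbouring near-identical light chain genes, were lowest in the same library, strongly adherent 5, at 222 and 321 CPM, against 331 to 478 and 504 to 834 CPM in the other 14. Reads of such copies can be split between them by counting, so their single values are uncertain, as are those of ACTB and ACTG1 and of genes with processed copies such as CFL1, PFN1 and TAGLN2. MYL6, the essential light chain, ranged from 885 CPM (strongly adherent 6) to 1812 CPM (weakly adherent 10).

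The 2 actins were steady. ACTB averaged 7835 ± 882 CPM in weakly adherent, 7576 ± 675 CPM in strongly adherent and 8228 ± 760 CPM in unsorted tumours (SD, n = 6, 4 and 5). ACTG1 averaged 4210 ± 588 CPM in weakly adherent, 4568 ± 645 CPM in strongly adherent and 4473 ± 724 CPM in unsorted tumours (SD, n = 6, 4 and 5). Differences between these means were below 1 SD of a group.

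Among the regulators, RHOA, the GTPase that activates ROCK, averaged 764 ± 92.0 CPM in weakly adherent, 735 ± 89.0 CPM in strongly adherent and 806 ± 112 CPM in unsorted tumours (SD, n = 6, 4 and 5). RHOB averaged 169 ± 48.1 CPM in weakly adherent, 220 ± 89.1 CPM in strongly adherent and 179 ± 62.0 CPM in unsorted tumours (SD, n = 6, 4 and 5). RHOC averaged 351 ± 45.3 CPM in strongly adherent tumours. ROCK1 ran from 65.4 to 115 CPM and ROCK2 from 39.7 to 108 CPM, with unsorted 6 highest for both. MYLK, the calcium-dependent kinase of the light chain, ran from 22.6 to 57.7 CPM. The formins DIAPH1 and DIAPH3 ran from 178 to 288 and from 26.6 to 55.2 CPM. Of the remaining filament genes, TPM4 ran from 998 CPM (strongly adherent 5) to 2015 CPM (unsorted 6), CNN3 from 225 to 499 CPM and TAGLN2 from 673 to 1357 CPM, with CNN3 and TAGLN2 lowest in strongly adherent 6.

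Other genes of the pathway, taken from lists by name, showed the same division: 0 were called in any of the 3 contrasts, and some were called for the title number. Of 20 further genes of actin turnover 2 were called by the F test (7.90% over all genes), the cofilin phosphatase SSH3 and the severing protein GSN, with GSN at 716.3, 625.2 and 569.5 CPM in the weakly adherent, strongly adherent and unsorted tumours of number 6 against 768 to 1339 CPM in the others. MYH14, the heavy chain of myosin IIC, was the 1 called of 22 formins, crosslinkers and stress fibre genes. It was at or near 0 in number 6, with no count in the weakly and strongly adherent tumours and 0.102 CPM in the unsorted one, against 0.742 to 13.9 CPM in the other 12. Of 16 tested myosin kinase and phosphatase genes and 14 cytokinesis genes, 0 were called. From these lists, the calmodulin gene CALM2 and the septin SEPT2 ran from 783 to 1340 CPM and from 316 to 425 CPM over the 15 libraries.

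SRF is a transcription factor that actin itself controls through its MRTF partners. Of the 9 tested genes in the list of SRF, MRTF and their targets, 4 were called (against 7.90% of all genes): EGR1, CYR61, FOS and MKL1. CYR61, a matrix signalling protein, had 789, 909 and 716 CPM in the weakly adherent, strongly adherent and unsorted tumours of number 6, against 252 to 671 CPM in the other 12. EGR1, an immediate early gene, had 322, 199 and 220 CPM in the weakly adherent, strongly adherent and unsorted tumours of number 4, 33.8, 34.9 and 27.3 CPM in those of number 9, and 18.3 CPM in weakly adherent 10. EGR1 was thus higher in number 4 than in number 9, as RHOB was. FOS had 337, 196 and 261 CPM in number 4 and 9.89, 10.0 and 8.69 CPM in number 9, in the same order of groups. MKL1, which encodes an MRTF, had 39.0, 32.8 and 35.3 CPM in number 6, against 52.5 to 69.4 CPM in the others.

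Markers of other cell types were looked at beside TAGLN, CNN2 and CALD1, which stroma also expresses. Of 12 smooth muscle and pericyte markers, 11 to 12 had counts in each library, with a summed level of 288 to 375 CPM in weakly adherent, 259 to 541 CPM in strongly adherent and 309 to 511 CPM in unsorted tumours. The upper ends of the last 2 ranges, in strongly adherent 5 and unsorted 6, held 237 and 211 CPM of DES, which is also a skeletal muscle marker. Without DES, number 6 summed to 223 to 300 CPM and the other 12 to 286 to 373 CPM. For the title number 2 of the 12 markers were called, NOTCH3 and MCAM, against 7.90% of all genes, a share that also stands beside the counts of the lists that follow. NOTCH3, a receptor of pericytes that tumour cells can also express, had 0.522, 0.187 and 0.229 CPM in the weakly adherent, strongly adherent and unsorted tumours of number 6, against 4.33 to 33.7 CPM in the other 12. ACTA2, the smooth muscle actin, had 31.98, 7.03 and 45.2 CPM in the same libraries of number 6, against 48.8 to 134 CPM in the other 12, while in strongly adherent 5, where TAGLN was also low, it had 75.7 CPM. The markers of this list were divided: SMTN and CSPG4 had their highest values in number 6. These were 135 and 42.9 CPM, against at most 128 and 33.4 CPM in the other 12. Number 6 lay wholly below the other 12 for 4 of the 12 markers (10.4% of all genes) and wholly above for 1 (5.63% of all genes). Fibroblast markers summed to 212 to 399 CPM in number 6, against 435 to 1357 CPM in the other 12, with 7 to 9 of 9 markers having counts in each library and COL3A1 and COL1A1 called. Most of the sum was COL1A1, COL1A2 and COL3A1, and the other markers were divided. LUM, PDGFRA and POSTN had their lowest values in number 6. FAP had its highest there, 36.7 CPM against at most 32.5 CPM in the other 12, as did DCN and THY1, at 0.187 and 0.123 CPM. The part of stromal RNA in the low TAGLN and CNN2 of number 6 was not tested. Endothelial markers summed to 22.6 to 26.1 CPM in number 6, above the 8.03 to 20.1 CPM of the other 12, but they too were divided. CDH5 and KDR had their highest values in number 6, 10.6 and 12.2 CPM, against at most 5.23 and 9.44 CPM in the other 12. EMCN also had its highest there, at 0.123 CPM. TEK had its lowest there, 0.936 CPM against at least 1.05 CPM, and PECAM1, VWF and CLDN5 had their highest values in the other 12. Leucocyte markers summed to 123 to 205 CPM in number 6, against 73.5 to 128 CPM in the other 12. In each list 1 of 5 tested was called (CDH5 and PTPRC). Most of the leucocyte sum was CD68, which reached 193 CPM in number 6 against at most 110 CPM in the other 12. PTPRC went the other way: its lowest value, 0.107 CPM, was in number 6, against 0.584 to 1.83 CPM in the other 12. CSF1R and LYZ also had their lowest values, 4.17 and 0.374 CPM, in number 6, against at least 9.31 and 0.680 CPM in the other 12. None of the 15 tested skeletal muscle markers was called for the number, and of 10 tested markers of the line, 3 were (KRT8, KRT18 and KRT19, all lower in number 6).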

How the data were processed

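Per the labels' protocols, libraries were made with the Illumina TruSeq stranded kit and read as 50 bp single-end reads. The submitters' processing notes name cutadapt, FastQC, STAR, HTSeq, DESeq2 and hg19. Versions and the strand setting are not given in the sources used here. Raw counts by gene symbol were deposited by the authors, as was a table of log2 values, each equal to log2 of the count over the library's size factor plus 1 (within 5.15e-14), used in limma-trend alternatives only.

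Libraries were grouped by the labelled adhesion profile. In R 4.3.3, edgeR 4.0.16 (TMM, filterByExpr, robust quasi-likelihood fit of all 15 libraries, two-sided, Benjamini-Hochberg over 15190 genes holding 99.98% of counts, threshold 0.05) tested 3 group contrasts, and, with the group as covariate, the 6 title numbers. Standard errors were the log2 fold change over the root of F. The code was tested on simulated data. Within-number differences used log2 CPM (prior count 2). Alternatives used DESeq2 1.42.0, limma 3.58.1, other scalings and filters, left-out libraries and a title number block. For strongly adherent against unsorted, same-numbered libraries had correlated deviations in all 4 pairs (0.28 to 0.75). Only 2 of these 4 correlated best with their own number, so a pairing, not stated in the labels, is not shown. No libraries of a group agreed within sampling noise (smallest chi-square per degree of freedom 32.1).

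Members, lists and tests were chosen with earlier results of these data known. Named are the 3 members of smallest p per contrast, the 8 of smallest and 2 of largest p (at 100 CPM or more) for the numbers, and 13 members always given. From each list up to 3 genes past the threshold are named, though not every gene so picked is used, and list markers of the line, ACTA1 and ACTA2 were added with their values seen. MKL1 and CYR61 appear under these older symbols. No sequences are shown, and 1 list is not reported here.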

Additional observations from a re-analysis of the deposited data

Results flagged for a closer look

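Within an adhesion group of 4 to 6 libraries, 13 of 96 gene and group combinations held a library far from the rest by Dixon's criterion at the 95% level, which chance alone passes in about 1 in 20, and the 32 genes are not independent of each other. Most of these libraries were number 6 or strongly adherent 5. In unsorted 6, ROCK2 (107.54 CPM), CFL2 (249.1 CPM), DIAPH3 (55.235 CPM), TPM1 (445.65 CPM) and TPM4 (2014.8 CPM) were above the other unsorted tumours, and LIMK1 (110.98 CPM) and LIMK2 (13.739 CPM) were below them. In strongly adherent 5, TPM1 (1391.6 CPM) and TPM2 (513.04 CPM) were high and MYL12B (321.26 CPM) was low. In strongly adherent 6, MYH9 (1090.7 CPM) was low against 1732 to 1806 CPM in the other strongly adherent tumours. Among weakly adherent tumours, MYL9 was high in number 10 (170.82 CPM, against 96.4 to 121 CPM) and MYL12B was high in number 7-8 (834.33 CPM).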

How the results depend on the processing

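The count of genes called for the title number, 1200 with 5 members, was 3344 with 10 members in DESeq2, 3 with 0 without number 6 and 54 with 1 without number 6 and strongly adherent 5, and leaving out 1 library gave 386 (without strongly adherent 6) to 1621 genes (without strongly adherent 5) and 3 to 7 members; the cause was not tested, but the reduced fits hold fewer libraries. Leaving out unsorted 6, strongly adherent 4, unsorted 9 or unsorted 4 gave 591, 637, 670 and 749 genes. In the 3 group contrasts the alternatives called 0 members. With the title number as replicate block, edgeR called 0 genes in each contrast, and DESeq2 called 30 genes for weakly against strongly adherent, 0 for weakly adherent against unsorted and 23 for strongly adherent against unsorted, none of them members. Same-numbered libraries deviated together with correlations of 0.02 to 0.77, 0.03 to 0.68 and 0.28 to 0.75 in the 3 contrasts, and 3 of 4, 3 of 5 and 2 of 4 correlated best with their own number. Every pair was above 0.1 only for strongly adherent against unsorted, where 2 of 4 correlated best with their own number. A pairing is therefore not shown for any of the 3 contrasts. The 17 single-gene results were followed through all alternatives. They kept their side of the threshold in 405 cases, lost it in 31 and gained it in 6. All of these changes were in the title number tests, which have no direction. The results of the group contrasts, far from the threshold at the start, passed it under no alternative, and none of them turned in direction. Over all 32 genes, whose fitted differences between groups passed no threshold, up to 10 turned in sign under an alternative, and TPM1 and TPM2 did so for strongly adherent against unsorted tumours without strongly adherent 5. With 4 to 6 libraries a group, the intervals of single genes still allow changes of the sizes printed beside them.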
